A study of Mus musculus with 4 samples.

Results

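Interferon-stimulated antiviral genes were followed in group 2 innate lymphoid cells (ILC2s), lymphocytes of tissues that carry no antigen receptor and make type 2 cytokines. The set holds 45 genes, read by symbol from the deposited expression tables of 55401 gene models. It joins interferon receptors, the transcription factors behind them, nucleic acid sensors and antiviral effectors, and leaves out the IRG and GBP families of interferon-inducible GTPases. Each of the 45 symbols matched 1 gene model. Lung ILC2s of C57BL/6 mice were purified and kept for 6 h with IL-33, an epithelial alarm cytokine that activates ILC2s. The other group received IL-33 plus Ang II (angiotensin II), the active peptide of the renin-angiotensin system. IL-33 was thus present in all groups, and no library of unstimulated cells, of Ang II alone or of cells given an interferon was analysed here. Each of the 4 libraries, 2 per group, came from amplified cDNA of 500 cells. The labels do not say whether these were drawn from different mice or cultures. The p-values therefore measure no more than the spread of these samples, part or all of which can be technical.

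Type I interferons bind a receptor made of IFNAR1 and IFNAR2, whose kinases JAK1 and TYK2 phosphorylate STAT proteins. With IRF9 these form the complex ISGF3, which binds interferon-stimulated response elements near the start of its target genes. Interferon gamma binds IFNGR1 and IFNGR2 and acts at gamma-activated sites. The target genes include sensors of viral nucleic acid, enzymes that block viral RNA and proteins that restrict viral entry or release. In ILC2s, interferons are known to restrain proliferation and cytokine release.

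Values are FPKM, that is fragments scaled by transcript length and by sequencing yield, so levels may be compared between genes. FPKM summed to between 394808 and 431014 per library. The files give no counts, and the depth behind each value is unknown. From how often low genes were listed at 0 in only 1 IL-33 library, a depth near 12300000 fragments was estimated. At that depth the IL-33 libraries differed by 1.08 times the counting noise among genes between 1 and 32 in FPKM times transcript kilobases, and by up to 1.97 times among more abundant genes. The Ang II libraries differed by 13.7 to 36 times that noise. Because the depth came from the IL-33 pair itself, its small ratio among low genes is partly built in. The same depth was used for the Ang II pair. Over the 45 genes, the median difference on the log2(FPKM + 1) scale was 0.04 between the IL-33 libraries and 0.75 between the Ang II libraries. The IL-33 libraries were therefore counted as 1 sample (n = 1, their mean) against n = 2 for Ang II, and the lone sample was assumed to vary like the Ang II libraries. Whether they are 1 library sequenced again cannot be told from these values. If they are, lying above or below both IL-33 libraries is a comparison with a single sample. The ILC2 markers were present: Gata3 measured 104 and 108 FPKM under IL-33 and 185 and 130 FPKM under Ang II, and Il1rl1, which encodes the IL-33 receptor, at 58.5 and 58.4 against 43.5 and 78.7 FPKM. Of 14 ILC2 markers, 3 lay above and 2 below in both Ang II libraries, and 9 overlapped. For all genes averaging at least 1 FPKM the shares above and below were 24.4% and 33.5%. Il13 stood at 70.05 and 73.7 FPKM under IL-33 and at 16.3 and 0.53 FPKM under Ang II. Areg stood at 7.38 and 7.51 FPKM against 217 and 344 FPKM. Only 1 of the 14, Thy1, stayed under 1 FPKM in all libraries.

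To show the elements through which such genes are read, the 250 bases before the RefSeq start (GRCm38.p6) are given for 4 genes, 5′ to 3′ on the strand of the gene. They are the 3 genes with the largest difference on the log2(FPKM + 1) scale among those that reached 20 FPKM and hold the searched element, and the most abundant gene that holds none. Capitals mark each match to GAAANNGAAA, the core letters of the interferon-stimulated response element, on either strand, where overlapping matches count separately. The windows are chr19:34640639-34640888 (plus strand) for Ifit1, chr19:34607707-34607956 (plus strand) for Ifit3b, chr19:34583279-34583528 (plus strand) for Ifit3 and chr7:141010745-141010994 (minus strand) for Ifitm3.
Ifit1: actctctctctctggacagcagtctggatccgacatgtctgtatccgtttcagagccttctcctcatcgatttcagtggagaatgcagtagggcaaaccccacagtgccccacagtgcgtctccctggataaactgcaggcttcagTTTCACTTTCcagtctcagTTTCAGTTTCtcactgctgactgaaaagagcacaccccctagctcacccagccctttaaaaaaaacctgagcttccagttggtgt
Ifit3b: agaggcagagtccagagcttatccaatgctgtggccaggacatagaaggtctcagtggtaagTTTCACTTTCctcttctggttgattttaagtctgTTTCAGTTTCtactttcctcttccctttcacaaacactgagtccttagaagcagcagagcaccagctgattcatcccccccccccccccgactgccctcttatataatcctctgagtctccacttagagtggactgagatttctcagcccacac
Ifit3: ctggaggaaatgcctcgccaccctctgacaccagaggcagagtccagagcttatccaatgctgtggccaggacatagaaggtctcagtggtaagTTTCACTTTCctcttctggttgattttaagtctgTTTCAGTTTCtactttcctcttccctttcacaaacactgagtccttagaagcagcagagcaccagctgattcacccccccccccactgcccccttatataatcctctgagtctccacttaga
Ifitm3: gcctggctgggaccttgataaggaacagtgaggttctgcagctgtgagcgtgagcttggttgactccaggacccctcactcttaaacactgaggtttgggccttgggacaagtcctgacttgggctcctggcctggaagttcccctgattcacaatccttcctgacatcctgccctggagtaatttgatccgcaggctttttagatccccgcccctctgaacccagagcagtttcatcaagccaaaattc
Ifit1 holds 2 matches whose starts lie 19 bases apart. Ifit3 and Ifit3b hold 2 matches each, 34 bases apart in both genes. The Ifitm3 window has none of these letters, which says nothing of other sites or of the factor. The promoter table held 36 of the 45 genes, with 43 windows. Of these windows 11 (25.6%) held the response element, against 2.98% of all 32851 windows of the same length. The letters TTCNNNGAA, the core of the gamma-activated site, were in 9 windows (20.9%), against 7.02% of all windows. In Bst2 a match to each overlapped. These genes were listed as interferon targets, so the excess describes the list. The 11 genes with the response element comprised Stat2, Ifit1, Ifit3, Ifit3b, Isg15, Oas1a, Oas3, Rsad2, Bst2, Ifitm2 and Trim30a.

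**Figure D1:**
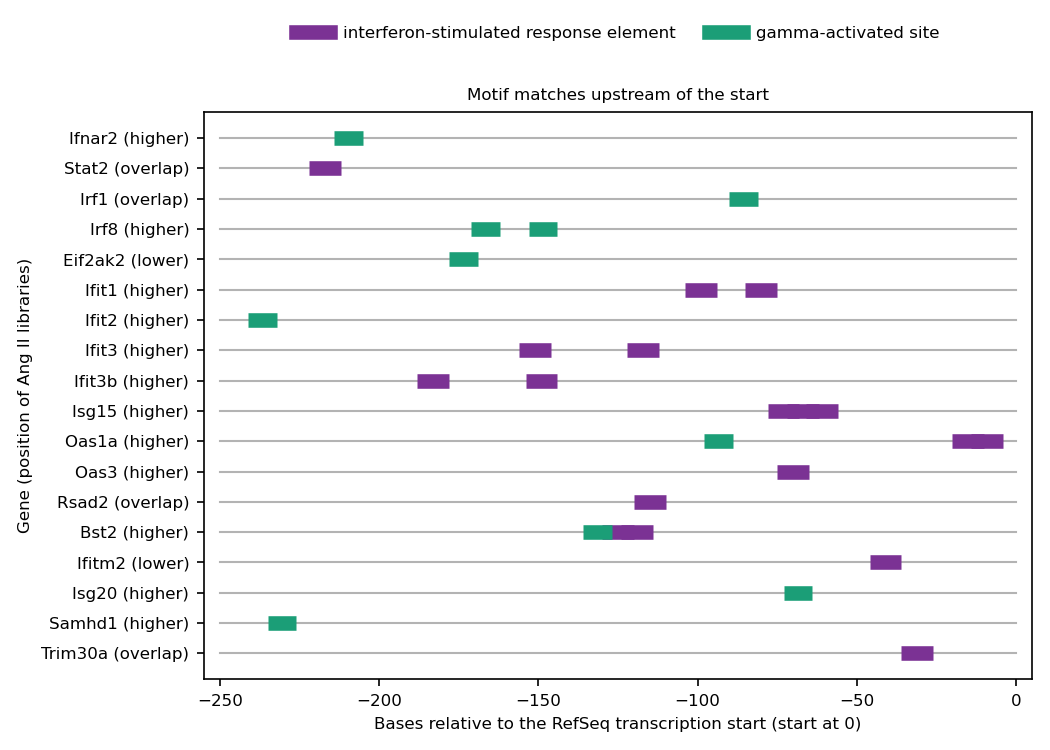
Position of each match to the response element (purple) and the gamma-activated site (green) in the 250 bases before the RefSeq start, for windows of the interferon-stimulated genes that hold at least 1 match. The x axis gives bases relative to the start, and the word after each name says whether both Ang II libraries lay above (higher) or below (lower) both IL-33 libraries. Matches of Ifit3 and Ifit3b are spaced alike.

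Ang II was compared with IL-33 alone to ask, per the series title, how the peptide bears on ILC2 responses. In 26 of the 45 genes both Ang II libraries lay above both IL-33 libraries, and in 7 both lay below, while 12 overlapped or were equal. Among all 9215 genes tested (mean of at least 1 FPKM over the IL-33 mean and the 2 Ang II libraries) these shares were 24.4% above and 33.5% below. Among the 2622 of these that averaged at least 20 FPKM, a minimum chosen after seeing the data, they were 33.9% and 31.1%. The median difference over the 45 genes on the log2(FPKM + 1) scale was 0.69, with 0.38 in Ang II replicate 1 and 1.04 in Ang II replicate 2, against -0.004 over all genes tested. Together the 45 genes took 0.850% and 0.847% of the FPKM sum with IL-33 and 1.42% and 1.77% with Ang II. Of the 11 genes with a response element before the start, 7 lay above and 1 below, and of the 25 whose windows held none, 14 lay above and 5 below, a difference that was not tested. Of the 45 genes, 42 were tested, without Ifit2, Mx2 and Oas2, which averaged under 1 FPKM. None of the 42 passed an adjusted p of 0.05 (limma, two-sided, Benjamini-Hochberg over all genes tested), the smallest adjusted p being 0.233 for Oas1a, and 0% of all genes tested passed. At an unadjusted p under 0.05, limma placed 6 of the 42 higher (Irf7, Ddx58, Ifit1, Oas1a, Oas3 and Ifi35) and 0 lower, against 2.79% of all genes tested higher and 10.8% lower. The filter's mean holds 1 IL-33 value and 2 Ang II values, which favours genes that are high with Ang II. Oas3, near 0 with IL-33, entered the test through Ang II alone. The test has 1 residual degree of freedom. When each IL-33 library counted as a replicate, 9 of the 42 passed the adjusted threshold, as did 16.8% of all genes tested.

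**Figure D2:**
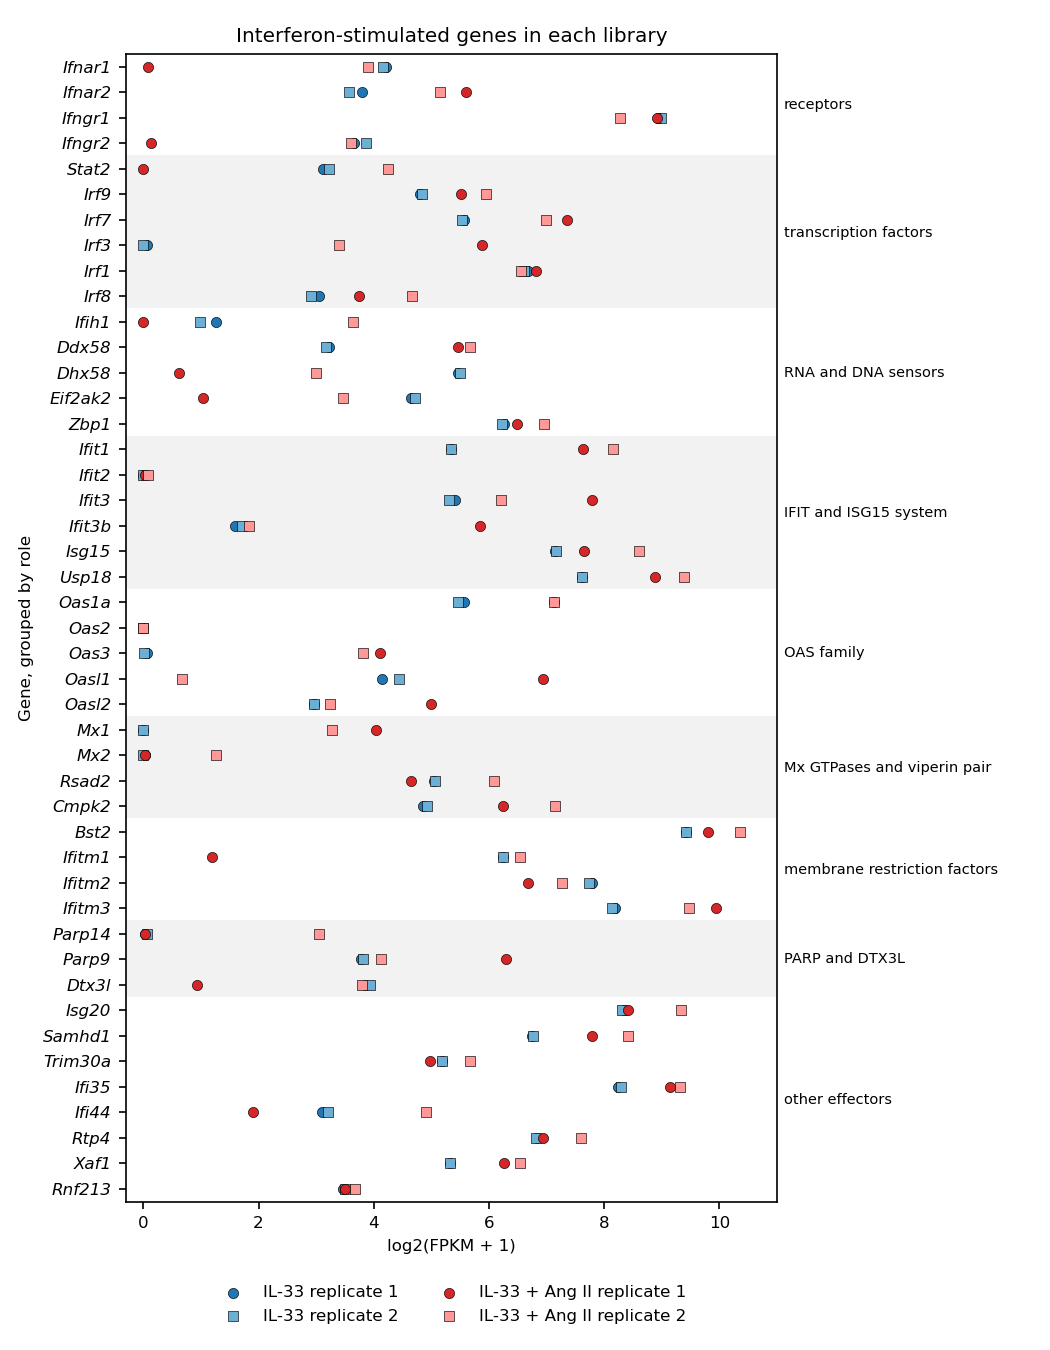
Expression of each of the 45 genes in each library, as log2(FPKM + 1) on the x axis, with genes grouped by role. The IL-33 points (blue) nearly coincide, while the Ang II points (red) lie apart in many genes; both red points lie to the right of both blue points in 26 genes.

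**Figure D3:**
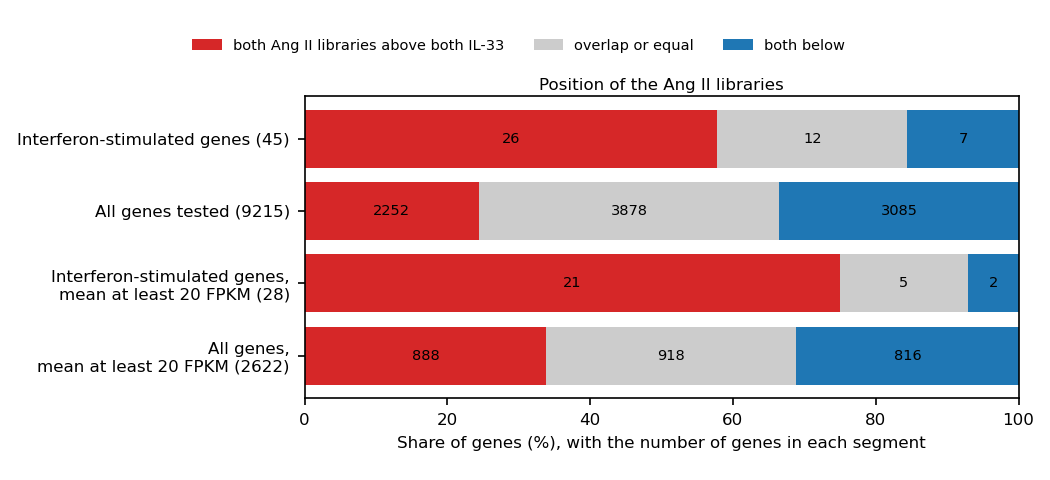
Share of genes, in percent, in which both Ang II libraries lay above both IL-33 libraries (red), overlapped them (grey) or lay below both (blue), with the number of genes in each segment. The red segment holds 26 of 45 interferon-stimulated genes and 2252 of 9215 genes tested.

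In bulk RNA, fewer cells of a type and less RNA per cell cannot be told apart, and these samples held transcripts of other cells. Macrophage and monocyte markers summed to 2435 to 2476 FPKM under IL-33 and to 1216 to 2294 FPKM under Ang II, with 2 of 11 above and 5 below in both Ang II libraries. For this and the marker counts that follow, 24.4% of all genes tested lay above and 33.5% below. Markers of plasmacytoid dendritic cells, strong interferon producers, summed to 6.73 to 7.07 FPKM against 21.3 to 42.7 FPKM. The higher sum came from Ly6d (0.76 and 1.00 against 42.7 and 21.2 FPKM), and 5 of the 7 markers, Siglech and Tcf4 among them, stayed under 1 FPKM in all libraries. Pacsin1 went the other way, at 6.29 and 5.68 against 0.01 and 0.02 FPKM, so that 1 of the 7 lay above and 1 below. T cell markers summed to 249 to 251 against 23.9 to 118 FPKM, with 8 of 9 below. Red blood cell markers summed to 24943 to 25146 against 1592 to 3832 FPKM, with 5 of 6 below. Neutrophil markers summed to 201 to 209 against 38.9 to 62.2 FPKM, with 3 of 6 below, and epithelial markers to 356 to 366 against 80.1 to 189 FPKM, with 4 of 8 below and the other 4 listed at 0 throughout. NK cell and ILC1 markers summed to 19.5 to 21.3 against 0.09 to 13.3 FPKM, with 0 of 8 above and 1 below. Klrd1, the 1 below, stood at 21.1 and 19.4 FPKM under IL-33 and was listed at 0 under Ang II. Gzma, at 13.3 FPKM, made up the sum of Ang II replicate 2, and Ncr1, Klrb1c, Tbx21 and Klre1 were at 0 throughout. B cell markers summed to 18.5 to 20.8 FPKM under IL-33, to 93.0 FPKM in Ang II replicate 1 and to 3.10 FPKM in replicate 2. Their part in the interferon-stimulated genes was not tested. With haemoglobin genes left out of the scaling, the counts above and below stayed at 26 and 7.

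The IFIT proteins bind viral RNA that lacks the host's cap marks, and ISG15 is a ubiquitin-like modifier that USP18 removes. In all 6 genes of this group both Ang II libraries lay above both IL-33 libraries, against 24.4% of all genes tested. However, Ifit2 was near 0 throughout and was not tested, and Ifit3 and Ifit3b share much of their sequence. Ifit1 (chromosome 19, 34640871 to 34650009, plus strand, mm10) measured 39.6 and 39.4 FPKM under IL-33 and 198 and 285 FPKM under Ang II. That is a difference of 2.56 on the log2(FPKM + 1) scale (SE 0.39, limma adjusted p = 0.258), and the Ang II values lay far above the IL-33 values. Usp18, whose product also blocks signalling at IFNAR2, stood at 195 FPKM in both IL-33 libraries and at 469 and 672 FPKM under Ang II (log2 difference 1.52, SE 0.37). A lincRNA model on the opposite strand of Usp18, Gm44148, was listed at 0 in 3 libraries and at 23.9 FPKM in Ang II replicate 2. Isg15 stood at 141 and 142 FPKM against 199 and 389 FPKM. Here the Ang II libraries lay farther from each other than the lower of them lay from IL-33.

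Ifit3 and Ifit3b are near copies of each other on chromosome 19, 19238 bases apart. Of the 50-base windows of the longest Ifit3 transcript, 51.2% also occur in Ifit3b transcripts, so their reads may have been split or shared in the authors' counting. Ifit3 measured 41.7 and 38.4 FPKM under IL-33 and 221 and 72.8 FPKM under Ang II. Ifit3b stood at 2.02 and 2.26 FPKM against 56.4 and 2.56 FPKM, so that its large mean difference came from Ang II replicate 1. Summed, they gave 43.7 and 40.6 FPKM against 278 and 75.3 FPKM, above IL-33 in both Ang II libraries. Ifit2, the next gene of the cluster, was listed at 0 under IL-33 and at 0.02 and 0.06 FPKM under Ang II.

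The OAS enzymes make 2′-5′ oligoadenylate, which activates the RNA-cutting enzyme RNase L. Oas1a (chromosome 5, 120896256 to 120907521, minus strand) measured 46.2 and 43.3 FPKM under IL-33 and 138 and 139 FPKM under Ang II. The Ang II libraries nearly coincided, and the difference was 1.61 on the log2(FPKM + 1) scale (SE 0.23, limma unadjusted p = 0.0247, adjusted p = 0.233). Oas1a shares 57.6% of its windows with Oas1g, which stood at 22.0 and 19.98 FPKM against 13.7 and 13.0 FPKM. The sum of Oas1a and Oas1g was 68.1 and 63.3 FPKM under IL-33 and 152 FPKM in both Ang II libraries. Oas3 measured 0.04 and 0.01 FPKM under IL-33 and 16.3 and 13.1 FPKM under Ang II (log2 difference 3.93, SE 0.67). Its neighbour Oas2, 3244 bases away, was listed at 0 in all 4 libraries.

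The OAS-like genes did not follow each other. Oasl2 measured 6.82 and 6.79 FPKM under IL-33 and 30.98 and 8.46 FPKM under Ang II. Oasl1, 11005 bases away, stood at 16.8 and 20.8 FPKM against 121.7 and 0.60 FPKM, so that the Ang II libraries lay on either side of IL-33. The antisense model Gm13822 overlaps Oasl1 and stood at 53.7 and 58.6 FPKM under IL-33, whereas both Ang II libraries list it at 0. The sources used here do not say that counting used strand, so reads of such partners cannot be told apart.

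The Mx GTPases trap viral nucleocapsids, and C57BL/6 mice carry a defective Mx1. Both IL-33 libraries list Mx1 at 0, and the Ang II libraries gave 15.4 and 8.73 FPKM. Mx2 did not exceed 0.02 FPKM in 3 libraries and reached 1.40 FPKM in Ang II replicate 2. Cmpk2 and Rsad2 lie head to head on chromosome 12, 12751 bases apart, and act in sequence: the CMPK2 kinase supplies the nucleotide that viperin, the Rsad2 product, turns into a chain terminator of viral RNA. Cmpk2 measured 28.1 and 29.4 FPKM under IL-33 and 75.2 and 140.9 FPKM under Ang II. Rsad2 stood at 32.1 and 32.5 FPKM against 24.2 and 67.3 FPKM. Ang II replicate 1 was thus above IL-33 for the first gene and below it for the second.

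Among proteins that restrict virus at membranes, Bst2 and Ifitm3 were the most abundant genes of the set in both Ang II libraries. Bst2, which encodes tetherin, measured 688 and 685 FPKM under IL-33 and 895 and 1306 FPKM under Ang II (log2 difference 0.66, SE 0.37). Ifitm3, which encodes a block to viral entry by endosomes (chromosome 7, 141009586 to 141010770, minus strand), stood at 292 and 279.9 FPKM against 981 and 708 FPKM. Its difference was 1.54 (SE 0.33, limma adjusted p = 0.374), and both Ang II values exceeded both IL-33 values. The other Ifitm genes did not show this. Ifitm2, whose product also acts in endosomes, was at 219.7 and 213 FPKM under IL-33 and at 101 and 154 FPKM under Ang II, below in both. Ifitm1, whose product acts mainly at the cell surface, was at 75.0 and 74.6 FPKM against 1.28 and 91.7 FPKM, with the Ang II libraries on either side. Of the Ifitm2 windows, 48.5% occur in other genes, against 10.0% for Ifitm3 and 6.36% for Ifitm1. The 3 genes summed to 586 and 568 FPKM under IL-33 and to 1084 and 953 FPKM under Ang II.

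Sensors of viral nucleic acid went in both directions. Ddx58, which encodes the RNA sensor RIG-I (chromosome 4, 40203773 to 40239828, minus strand), measured 8.38 and 8.01 FPKM under IL-33 and 42.99 and 49.9 FPKM under Ang II. The Ang II libraries lay close together, with a difference of 2.36 on the log2(FPKM + 1) scale (SE 0.38, limma adjusted p = 0.275). Zbp1, a sensor of Z-form nucleic acid that can start necroptosis, stood at 75.3 and 74.0 FPKM against 88.7 and 124 FPKM. Dhx58, which encodes LGP2, a regulator of the RNA sensors, measured 43.1 and 44.4 FPKM under IL-33 and 0.53 and 7.03 FPKM under Ang II. Eif2ak2, which encodes the kinase PKR that halts translation, stood at 24.2 and 25.1 FPKM against 1.06 and 10.1 FPKM. Both genes were lower in both Ang II libraries, with limma adjusted p of 0.691 and 0.775. Ifih1, which encodes the RNA sensor MDA5, stood at 1.39 and 0.97 FPKM under IL-33, was listed at 0 in Ang II replicate 1 and stood at 11.5 FPKM in replicate 2. With a pseudocount of 0.1 the sign of its mean difference turned.

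**Figure D4:**
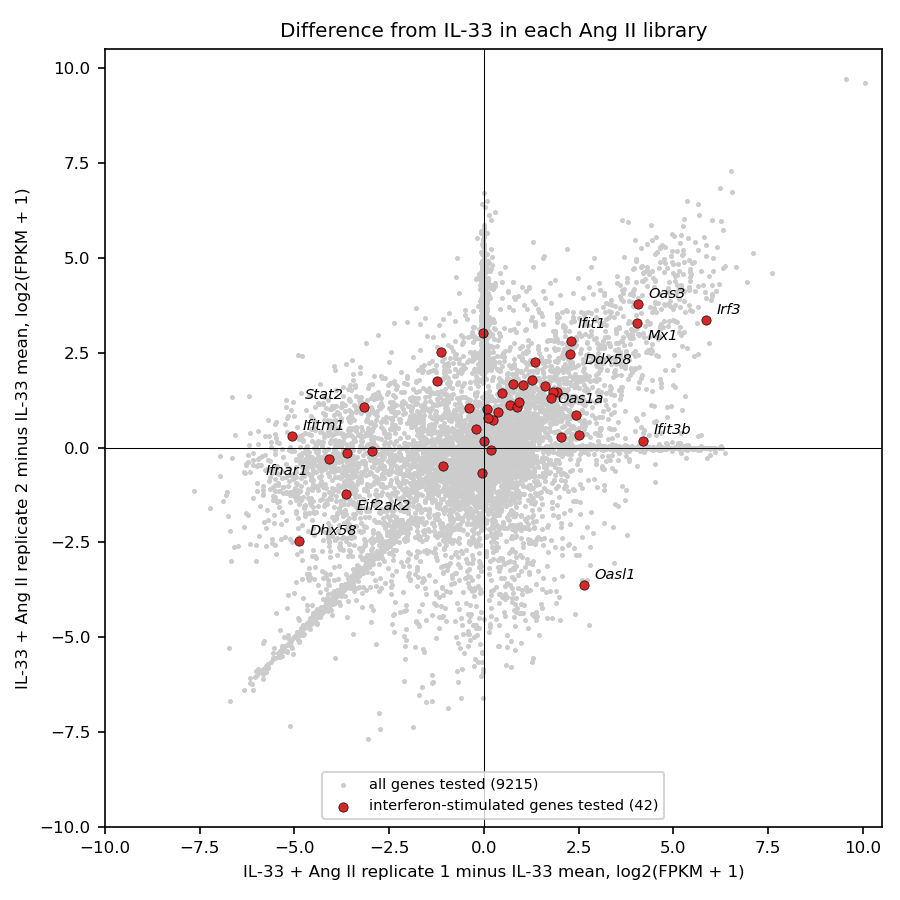
Difference of each Ang II library from the IL-33 mean on the log2(FPKM + 1) scale, replicate 1 on the x axis and replicate 2 on the y axis, for all 9215 genes tested (grey) and the 42 interferon-stimulated genes among them (red, 13 of them named). Ifit1, Ddx58, Oas1a, Oas3, Mx1 and Irf3 lie at upper right, Dhx58 and Eif2ak2 at lower left, and Oasl1, Ifitm1 and Stat2 in the other 2 quadrants.

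Of the transcription factors, 4 of 6 were higher in both Ang II libraries and 0 were lower in both. Among all genes tested, 24.4% were higher and 33.5% lower. Irf7, the factor that amplifies type I interferon production (chromosome 7, 141262706 to 141266481, minus strand), measured 46.2 and 45.0 FPKM under IL-33 and 163 and 127 FPKM under Ang II (log2 difference 1.64, SE 0.32, limma adjusted p = 0.349). Irf9, the DNA-binding part of ISGF3, stood at 26.9 and 27.6 FPKM against 44.5 and 60.8 FPKM. Irf8, a factor of macrophages and dendritic cells, stood at 7.24 and 6.54 FPKM against 12.4 and 24.3 FPKM. These values of Irf8 stand beside the macrophage marker sum, which was lower with Ang II. Of its 11 markers 5 were below in both Ang II libraries and 2, Marco and Ctss, above. Marco was listed at 0 under IL-33 and stood at 191 and 23.2 FPKM under Ang II. Conventional dendritic cell markers summed to 2.41 to 2.57 FPKM under IL-33 and to 3.49 to 16.9 FPKM under Ang II. Of these, 4 of 6 (Flt3, Clec9a, Cd209a and Itgax) were listed at 0 throughout, and Xcr1 carried the sum. The part of these cells in Irf8 was not tested.

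Irf3, which is activated by nucleic acid sensors rather than made on demand, was at 0.05 FPKM in 1 IL-33 library, listed at 0 in the other, and stood at 58.2 and 9.49 FPKM under Ang II. Bcl2l12 overlaps Irf3 on the opposite strand, was listed at 0 with IL-33 and in Ang II replicate 2, and stood at 26.7 FPKM in Ang II replicate 1, the library in which Irf3 was highest. Stat2, which encodes a part of ISGF3, stood at 7.70 and 8.36 FPKM under IL-33, was listed at 0 in Ang II replicate 1 and stood at 17.96 FPKM in replicate 2. Irf1, an early target of interferon gamma, stood at 101 and 96.5 FPKM against 111 and 93.4 FPKM, with overlapping groups.

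Of the 4 receptor genes, 3 were lower and 1 higher in both Ang II libraries, against 33.5% and 24.4% of all genes tested. Ifngr1, the ligand-binding chain of the interferon gamma receptor, was the second most abundant gene of the set with IL-33, at 493 and 504 FPKM against 483 and 309.8 FPKM under Ang II. The higher Ang II value lay just under the lower IL-33 value, and the groups overlapped with median-of-ratios scaling. Ifngr2, its signalling chain, stood at 11.6 and 13.5 FPKM against 0.10 and 11.2 FPKM. On the same stretch of chromosome 16 lie both chains of the type I receptor. Ifnar1 measured 17.6 and 16.8 FPKM under IL-33 and 0.06 and 13.9 FPKM under Ang II. Ifnar2 stood at 12.8 and 10.95 FPKM against 47.8 and 34.4 FPKM, above in both (log2 difference 1.69, SE 0.46, limma adjusted p = 0.460). Apart from Ifnar2, the shortfall of Ang II replicate 2 was small in Ifnar1 and Ifngr2, and the low means rested on replicate 1.

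PARP9 and DTX3L form a complex that modifies histones and supports interferon signalling, and their genes lie head to head on chromosome 16 with an overlap of 682 bases. Parp9 measured 12.8 and 13.1 FPKM under IL-33 and 77.7 and 16.5 FPKM under Ang II, while Dtx3l stood at 13.4 and 14.2 FPKM against 0.91 and 12.9 FPKM. In Ang II replicate 1 these partners thus lay on opposite sides of IL-33. Parp14, a further ADP-ribosyltransferase, was at or under 0.04 FPKM in 3 libraries and at 7.29 FPKM in Ang II replicate 2.

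Of the other 8 effectors, 5 were higher in both Ang II libraries and 0 lower in both. The shares of all genes tested were 24.4% higher and 33.5% lower. Ifi35, which encodes a leucine zipper protein induced by interferon (chromosome 11, 101448407 to 101458698, plus strand), measured 301 and 311 FPKM under IL-33 and 563 and 638 FPKM under Ang II. Its difference, 0.97 on the log2(FPKM + 1) scale, had the smallest SE of the set (0.18), with a limma adjusted p of 0.334. An antisense model that overlaps it, Gm11626, stood at 11.6 and 12.1 FPKM against 0.09 and 30.3 FPKM. Samhd1, which encodes an enzyme that breaks down deoxynucleotides and so starves reverse transcription, measured 107 and 108 FPKM under IL-33 and 219.5 and 339 FPKM under Ang II. Xaf1, a pro-apoptotic gene, stood at 38.9 and 39.2 FPKM against 75.4 and 91.7 FPKM. In both genes the Ang II values were clear of IL-33.

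Isg20, which encodes an exonuclease of single-stranded RNA, measured 323 and 316 FPKM under IL-33 and 339 and 647 FPKM under Ang II. Rtp4, a chaperone of receptors that also dampens interferon responses, stood at 113 and 111 FPKM against 122 and 192 FPKM. For both, Ang II replicate 1 was barely above IL-33 and the mean difference came from replicate 2. Trim30a, which restrains Toll-like receptor signalling, stood at 35.4 and 35.2 FPKM against 30.6 and 50.2 FPKM, and Ifi44 at 7.54 and 8.26 FPKM against 2.74 and 28.9 FPKM. Rnf213, a large ubiquitin ligase, stood at 10.1 and 10.3 FPKM against 10.3 and 11.8 FPKM. These last 3 overlapped between groups, and with median-of-ratios scaling Rnf213 lay above in both Ang II libraries.

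The Ang II libraries differed from each other by more than 4-fold on the log2(FPKM + 1) scale in 14 of the 45 genes (31.1%), against 38.8% of all genes tested. Replicate 2 was the higher in 10 of them: Ifnar1, Ifngr2, Stat2, Ifih1, Dhx58, Eif2ak2, Ifitm1, Parp14, Dtx3l and Ifi44. Replicate 1 was the higher in 4: Irf3, Ifit3b, Oasl1 and Parp9. Against both IL-33 libraries, replicate 2 alone lay above in 35 genes and below in 9, where 45.7% and 46.1% of all genes tested did. Replicate 1 alone lay above in 28 and below in 13, against 41.9% and 46.6%.

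Further genes of the pathway, 100 in all, were read from lists made apart from the 45. Of 21 interferon genes, 18 were listed at 0 in all libraries, Ifnb1 and Ifng among them, and the highest value of any was 1.65 FPKM. The receptor kinase gene Jak1 measured 41.6 and 40.9 FPKM against 8.66 and 25.2 FPKM, below in both, and Tyk2 did not exceed 0.01 FPKM. Socs1, the feedback inhibitor of interferon receptors, stood at 296 and 293 FPKM against 333 and 239 FPKM, with overlapping groups. Irf2, which encodes a repressor at response elements, stood at 0.74 and 0.71 FPKM against 8.30 and 10.2 FPKM. Of the 11 signalling and feedback genes, 4 were above and 2 below in both Ang II libraries. Among 14 genes of nucleic acid sensing upstream of interferon these counts were 3 and 2. Of all genes tested, 24.4% were above and 33.5% below.

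Among 54 further interferon-stimulated genes, 20 were above and 12 below in both Ang II libraries, against 24.4% and 33.5% of all genes tested. The median log2 difference of the 54 was 0.31 (0.015 in replicate 1 and 0.38 in replicate 2). Of the 100, 65 were tested and none of these passed the adjusted threshold. At an unadjusted p under 0.05, limma placed 5 of the 65 higher and 4 lower, against 2.79% and 10.8% of all genes tested. Of the 5 higher, Phf11b and Parp10 stood under 1 FPKM with IL-33 and entered the test through Ang II alone. Among the 4 lower, Mavs and Oas1b overlapped between groups and rest on 1 IL-33 library each. The other pair, singled out after their values were seen, are Cgas and Znfx1. Cgas, which encodes the DNA sensor cGAS, measured 11.5 and 12.2 FPKM under IL-33, against 0 listed in each Ang II library (log2 difference -3.68, SE 0.34, limma adjusted p = 0.174). Znfx1, which encodes a helicase that senses viral RNA, stood at 14.3 and 10.8 FPKM, with 0 and 0.01 FPKM under Ang II (log2 difference -3.75, SE 0.35, limma adjusted p = 0.174). Both averaged under 5 FPKM, the minimum for genes named by size, in a mean that holds 1 IL-33 value and 2 Ang II values and so leaves out genes that are low with Ang II. Of those named by size, Phf11b measured 0.42 and 0.37 FPKM under IL-33 and 43.95 and 65.3 FPKM under Ang II, and Parp10 at 0.01 and 0.02 against 15.9 and 14.7 FPKM. Ifi209, of the DNA-binding IFI200 family, stood at 36.5 and 39.2 FPKM against 164 and 202 FPKM. Ms4a4c stood at 12.2 and 12.1 against 54.7 and 117 FPKM, and Slfn8, a Schlafen gene, at 4.37 and 4.94 against 27.7 and 95.2 FPKM. These 5 were higher in both Ang II libraries. Trim34a measured 46.5 and 48.9 FPKM under IL-33 and 0.06 and 7.24 FPKM under Ang II. Uba7, which encodes the enzyme that activates ISG15 for conjugation, stood at 37.5 and 38.3 against 0.08 and 18.2 FPKM, while Isg15 and Usp18 were higher. Phf11d stood at 13.9 and 14.0 FPKM, with 0 listed in Ang II replicate 1 and 3.10 FPKM in replicate 2, and Adar, whose product edits double-stranded RNA, at 11.3 and 11.5 against 0.05 and 9.68 FPKM. These 4 were lower in both.

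**Figure D5:**
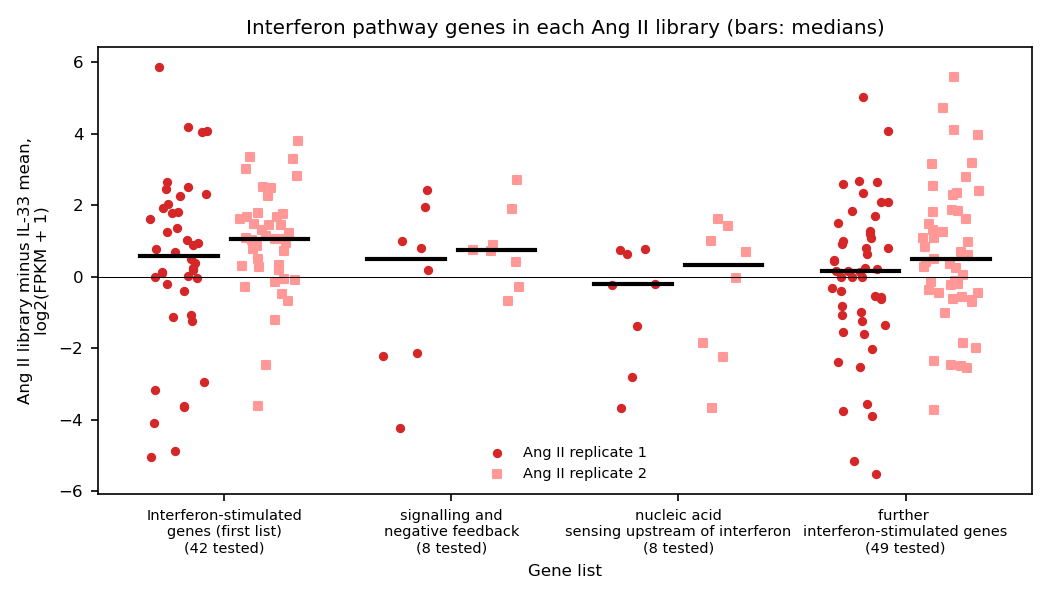
Difference of each Ang II library from the IL-33 mean on the log2(FPKM + 1) scale (y axis) for the tested genes of the interferon-stimulated list and of 3 further lists of the pathway (x axis). Points are genes, circles are Ang II replicate 1 and squares replicate 2, and black bars are medians. The medians of the 42 tested genes of the first list are 0.59 and 1.05, and those of the 49 further interferon-stimulated genes 0.15 and 0.48.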

How the data were processed

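RNA-seq libraries of lung ILC2s were made from amplified cDNA and sequenced in pairs, per the labels' protocols. The authors deposited FPKM per gene with 2 decimals, per the file headers; the submitters' processing notes name HISAT, StringTie, edgeR and the build mm10 without versions or roles, and the annotation is not given in the sources used here. Amplification from few cells without named molecular identifiers can widen the spread between libraries, which was not tested. Gene coordinates come from GENCODE release M21 (GRCm38, the assembly of mm10), with 55141 of 55401 gene models found by identifier, and promoter windows from RefSeq (GRCm38.p6). The IL-33 libraries were averaged and counted as 1 sample. Genes averaging at least 1 FPKM were tested on log2(FPKM + 1) with limma 3.58.1 in R 4.3.3 (mean-variance trend, Benjamini-Hochberg, threshold 0.05), which understates the change of low genes. Values are printed for genes of the set that reach 5 FPKM in a library; of the other pathway genes the text names Ifnb1, Ifng, Jak1, Tyk2 and Socs1, and the 10 largest differences without overlap at a mean of at least 5 FPKM; a result under this rule is not reported here. Other genes are named beside a member that they overlap or share sequence with. The members and lists were chosen with earlier results of these data known. Alternatives covered the pseudocount, filters, scaling, the count of IL-33 samples, a replicate block and each library left out.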

Additional observations from a re-analysis of the deposited data

How the results depend on the processing

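Values rest on 2 Ang II libraries that differ widely, and on FPKM without counts, so a listed 0 need not mean absence. The number of genes of the set past the adjusted threshold (0) stayed at 0 under every alternative that gives a test, except that 9 passed when the IL-33 libraries each counted as a replicate (Irf7, Ddx58, Ifit1, Usp18, Oas1a, Oas3, Mx1, Ifitm3 and Ifi35). Among all genes that setting called 1547 (16.8%), and a minimum mean of 20 FPKM called 2. Of the 9, Oas3 and Mx1 entered the test through Ang II alone. At an unadjusted p under 0.05, counting each IL-33 library placed 15 of the set higher and 1 lower, in place of 6 and 0, and 10.7% and 17.3% of all genes. The labels give the groups the same replicate numbers. Differences between replicates 1 and 2 correlated at -0.019 across genes between the groups. The IL-33 difference is close to counting noise, so this value cannot show whether the numbers are pairs. The main test did not take them as pairs. With a replicate block, 13 of the set were higher and 1 lower at an unadjusted p under 0.05, against 6.71% and 13.2% of all genes, and 0 passed when adjusted. Between 26 and 28 genes lay above IL-33 with all libraries, under each pseudocount and scaling. At a minimum mean of 20 FPKM, chosen after seeing the data, 21 of 28 genes of the set lay above and 2 below. Among all 2622 genes at that minimum, 33.9% lay above and 31.1% below. That mean is mostly Ang II, so Dhx58 and Eif2ak2 dropped out as low there, while Irf3 and Ifit3b stayed through Ang II. With a library left out, those below numbered between 7 and 13. Leaving out Ang II replicate 2 gave 13, and without Ang II replicate 1 there were 9, against 46.6% and 46.1% of all genes tested. The median difference of the set (log2) ranged from 0.38 without Ang II replicate 2 to 1.04 without Ang II replicate 1. Those last settings leave 1 sample per group and give values without a test. With all libraries, signs turned for Ifih1 (-0.25 with a pseudocount of 0.1) and Socs1 (0.035 with median-of-ratios scaling). With an Ang II library left out, signs turned for 9 genes of the set: Stat2, Irf1 and Ifitm1 without replicate 1, and Ifih1, Oasl1, Rsad2, Parp14, Trim30a and Ifi44 without replicate 2, as for Socs1.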

Other observations

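The IL-33 libraries, which nearly coincide in most genes, differed in 3 genes of the pathway singled out after their values were seen. Mavs, which encodes the adaptor of the RNA sensors, stood at 12.1 FPKM in IL-33 replicate 1 and at 0.05 FPKM in replicate 2, against 0.02 and 0.48 FPKM under Ang II. Oas1b stood at 0.02 and 9.44 FPKM under IL-33, and was listed at 0 in one Ang II library and at 0.04 FPKM in the other. Tor3a measured 22.5 and 45.7 FPKM under IL-33 and 97.6 and 96.1 FPKM under Ang II.

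Other values singled out after they were seen concern abundant genes of the pathway. Ly6a, which encodes Sca-1, a surface marker of lymphocytes and progenitors, was the most abundant of the 100 further genes and measured 537 and 558 FPKM under IL-33 and 1937 and 1308 FPKM under Ang II. Cxcl10, the gene of a chemokine for T cells, stood at 84.5 and 89.1 FPKM under IL-33, at 59.1 FPKM in Ang II replicate 1 and at 609 FPKM in replicate 2.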
